A study of Rattus norvegicus with 9 samples.

Results

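Ganglia from rats with a spared nerve injury that had also received G15 were compared with sham ganglia, gene by gene. Of the 9 RNA-Seq libraries of the series, 6 enter this comparison, 3 labelled SNI + G15 and 3 labelled sham, and the 3 SNI libraries are used to place the SNI + G15 values. All 9 libraries are labelled as dorsal root ganglion (DRG) tissue of male Sprague Dawley rats. Spared nerve injury (SNI) is a rat model of neuropathic pain in which the tibial and common peroneal branches of the sciatic nerve are ligated and cut and the sural branch is left intact. G15 is a small-molecule antagonist of GPER, a membrane estrogen receptor of the G protein-coupled family. It was given intrathecally through a catheter that was implanted on day 5 after SNI, over 24 h per the labels. Sham is the operation without the nerve lesion. The titles mark the sham and SNI libraries as G15 control. The labels do not say whether the rats of these libraries carried a catheter or received the vehicle. Between SNI + G15 and sham the injury, the catheter, the vehicle and G15 therefore cannot be told apart. The study's sources also differ on how many rats stand behind a group, and the 3 SNI + G15 titles all begin with D_SNI1. The p-values therefore measure the spread between libraries, which may be technical. In bulk tissue, fewer cells of a type and less RNA per cell cannot be told apart.

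DRG hold the cell bodies of the sensory neurons that carry touch, temperature, itch and pain to the spinal cord. The neurons are wrapped by satellite glial cells, their axons are myelinated by Schwann cells, and macrophages, fibroblasts and blood vessels lie between them. After an axon is cut, the cell body starts a known program: injury transcription factors such as ATF3, JUN and SOX11 come on, growth-associated proteins and a set of neuropeptides are made, and many receptors and ion channels of the intact neuron are turned down. Macrophages gather in the ganglion, and satellite glia make the filament protein GFAP. The tissue label was checked against markers of its cells. Neurofilament, satellite glial and myelin genes were abundant in every library: the 12 neuron markers summed to between 23400 and 33900 CPM (counts per 1000000 of the TMM-scaled library), the 20 myelin genes to between 7060 and 12500, and the 15 satellite glial genes tested to between 7470 and 9010.

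The estimated counts summed to between 18484557 and 18756736 per library, and 14305 of the 20194 genes in the table reached an FPKM of 1 in at least 1 library and were tested. A gene close to absent from sham could pass this filter only through the injured groups, which favours increases among such genes. Levels below are CPM, scaled by TMM over the 9 libraries. They are not divided by gene length, so they compare libraries and not genes. Changes are log2 fold changes with their standard error (SE) from edgeR, and a gene is called at an adjusted p below 0.05. The first principal component, with 51.1% of the variance, separated sham from the other 2 groups, and the second, with 13.7%, separated SNI + G15 from SNI. SNI + G15 replicate 3 stood apart from the other 2 libraries of its group. Its second component score was 27.37 against 13 and 14.21, and its counts differed from theirs by 8.92 and 8.63 in mean chi-square per gene, against 3.18 between those 2 and 2.62 to 4.78 within the other groups. It also held relatively more short transcripts. Its genes in the shortest of 5 classes by effective length lay 0.215 above the sham mean in median log2 CPM, against 0.061 and 0.088 in the other 2 libraries. Values without it are therefore given beside the results they touch.

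**Figure D1:**
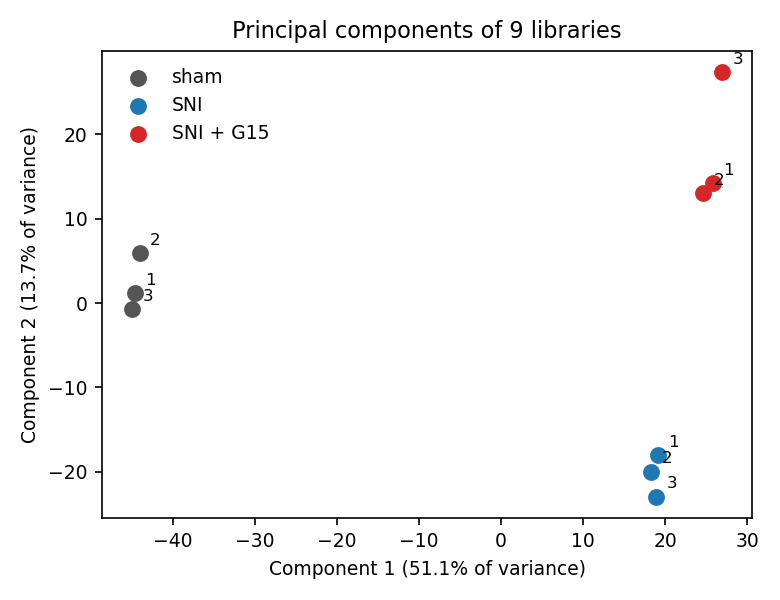
Scores of the 9 libraries on the first (x axis, 51.1% of the variance) and second (y axis, 13.7%) principal components of log2 CPM, coloured by group and numbered by replicate. The sham libraries lie alone on the left, and SNI + G15 replicate 3 lies above the other 2 libraries of its group.

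Between SNI + G15 and sham, 6186 of the 14305 tested genes were called, which is 43.2%. Of these, 3056 were higher in SNI + G15 (21.4% of those tested) and 3130 were lower (21.9%). The median absolute change of the called genes was 0.42, and 844 changed by at least 1. Increases dominated the large changes, with 645 genes higher and 199 lower by at least 1, and 177 higher and 18 lower by at least 2. The groups did not overlap, so that every SNI + G15 library lay on the same side of every sham library, for 7705 genes (53.9%), and 6079 of these were called. The median over all tested genes was -0.0037. Without SNI + G15 replicate 3, 6015 genes were called. For reference, 6537 genes (45.7%) were called between the SNI and sham libraries and 2179 (15.2%) between those of SNI + G15 and SNI. The first of these uses the same sham libraries, so both sets of values are given side by side. Calls between SNI + G15 and SNI were less stable. Of the values against SNI printed below for tested genes, those of Gabra2, Il6 and Slc6a6 lost their call without at least 1 SNI library. Esr1 was under the filter and was not refitted in this way. The count of 2179 fell to between 893 and 1098 when 1 SNI library was left out, lowest without SNI replicate 3.

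Most tested genes of the neuronal injury program were higher than in sham. Of 18 injury transcription factors, 17 were tested, 14 were higher after injury and G15 and 0 lower (median 0.97). Atf3, which encodes a stress-induced factor of the ATF/CREB family and is the usual marker of an axotomized neuron, stood at 7.55, 8.27 and 6.95 CPM in the sham libraries and at 253, 249 and 266 CPM in the SNI + G15 libraries. The groups were far apart, and Atf3 was 33.4-fold higher (5.06, SE 0.07, adjusted p = 2.66e-10). Its counts were not whole in any library, which means that reads were shared out between features, so its exact level is less sure. Sox11, a factor that drives axon growth, rose by 3.32 (SE 0.16) from 1.37 to 2.74 CPM in sham to 19.8 to 22.1 CPM. Jun, the partner of ATF3 in AP-1 dimers, rose by 1.80 (SE 0.06) and Cebpd, a factor of acute inflammation, by 1.82 (SE 0.09). Cebpd also differed between the injured groups, being 0.59 higher in SNI + G15 than in SNI (adjusted p = 0.00034). Klf4, Klf9 and Atf5 were the tested members that were not called.

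All 25 growth-associated genes were tested, 23 were higher and 2 lower, with a median of 1.40. Sprr1a, a small proline-rich protein of regrowing axons, gave 0, 1 and 1 counts in the sham libraries and 307, 326 and 333 in SNI + G15. The ratio of the summed counts was 483, with an exact counting interval from 133 to 3990 that covers counting error only. Reg3b, a secreted lectin made by injured neurons, was 6.86 higher (SE 0.14, adjusted p = 1.28e-09), and Arg1, the arginase of polyamine synthesis, 3.36 higher. Flrt3, a membrane protein of neurite outgrowth, went from 14.6 to 15.2 CPM in sham to 89.2 to 97.9 CPM. Gap43, the classic growth cone protein, was 1.44 higher and Csf1, the factor by which injured neurons call on macrophages, 2.22 higher, at 23, 24 and 24.5 CPM in sham against 112, 111 and 112 CPM. The 2 genes that fell were Nrn1, a neurite-promoting protein (-0.69), and Ngfr, the low-affinity neurotrophin receptor (-0.37).

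Among 11 neuropeptides known to respond to injury, 7 were higher and 3 lower. Vip, the vasoactive intestinal peptide gene, had no count in any sham library and 675, 661 and 778 counts in SNI + G15, which makes it at least 220-fold higher when each sham library is given the 3 counts that a 0 allows. Npy, neuropeptide Y, stood at 1.75, 5.11 and 4.76 CPM in sham and at 407, 448 and 461 CPM in SNI + G15 (6.80, SE 0.20). Gal, galanin, was 23.2-fold higher at 140, 152 and 163 CPM against 5.64, 6.58 and 7.17 CPM (4.54, SE 0.10, adjusted p = 1.28e-09). Adcyap1, which encodes PACAP, was 2.06 higher, which is the median of the list, and Ucn, urocortin, 4.96 higher from 3 to 5 counts a library in sham. Cartpt (-1.12), Crh (-0.94) and Penk (-0.55) were lower, but Penk lost its call in 4 of the 6 fits that leave out 1 library (highest adjusted p = 0.063). Of 7 tested peptides that nociceptors make without injury, 3 were higher and 2 lower, and 3 were called in all without sham replicate 1. Calca, the gene of calcitonin gene-related peptide, was 0.23 higher (SE 0.06, adjusted p = 0.016), a call that ended without sham replicate 1 (adjusted p = 0.0649) or sham replicate 3 (adjusted p = 0.0636). Tac1, the substance P precursor, changed by -0.17 (SE 0.056, adjusted p = 0.0342), but it was not called under 8 alternatives (adjusted p up to 0.125). Iapp, amylin, fell by 1.13. Nppb, the itch peptide, was 1.36 higher at 31 to 38 counts a library.

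The promoters of a pair of these genes hold motifs of the factors above, and they are shown so that the letters can be seen beside the values. Promoters are those of RefSeq on GRCr8, 250 bases before to 50 after the annotated start, and 11140 of the tested genes have one in the table. The motif TGACGT, the core of the cyclic AMP response element that CREB and ATF proteins bind, was searched on both strands. It is in 7.94% of all 33469 promoters, in 11.7% of the tested genes and in 3 of the 8 neuropeptide genes with a promoter, Vip, Ucn and Cartpt. TGACTCA, the AP-1 site, is in 4.63% of all promoters, in 3.82% of the tested genes and in 2 of 17 growth-associated genes, Plaur and Sprr1a. A stretch of 150 bases before the start is given for Vip (chr1:44470311-44470460, plus strand) and Sprr1a (chr2:180752680-180752829, minus strand). Capitals mark the motif, which begins 97 bases before the start of Vip and, in the first of a pair of matches, 147 bases before that of Sprr1a, there on the opposite strand. A match is a description of the letters and no evidence of binding in these ganglia.
Vip: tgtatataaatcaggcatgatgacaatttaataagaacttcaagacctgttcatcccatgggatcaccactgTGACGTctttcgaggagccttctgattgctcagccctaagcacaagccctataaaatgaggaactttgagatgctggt
Sprr1a: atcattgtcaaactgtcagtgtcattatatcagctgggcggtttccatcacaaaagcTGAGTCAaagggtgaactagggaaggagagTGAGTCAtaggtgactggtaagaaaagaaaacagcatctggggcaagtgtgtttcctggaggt

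The widest increases outside these lists were in genes close to absent from sham ganglia. Crisp3, a cysteine-rich secretory protein, gave 3, 2 and 2 counts in the sham libraries and 573, 537 and 664 in SNI + G15, a ratio of 253 with an interval of 123 to 631. Hamp, the iron hormone hepcidin, gave 2, 0 and 1 counts against 245, 271 and 332. En1, a homeodomain factor, gave 1, 0 and 1 against 78, 84 and 108, and Lce1f 2, 0 and 0 against 195, 241 and 270. These genes were close to absent from sham and present in all 3 SNI + G15 libraries. They could pass the filter only through the injured groups, so among genes this low in sham only increases could be seen. Csrp3, a muscle LIM protein also made by axotomized neurons, rose by 7.24 (SE 0.15), Ptprh, a receptor tyrosine phosphatase, by 6.75 (SE 0.13), Cldn4, a tight junction claudin, by 6.42 (SE 0.15) and Fcrl2 by 5.74 (SE 0.12). Tmem45a had no count in sham but 41, 8 and 31 in SNI + G15, so it was at least 2.67-fold higher. Serpina3n, a protease inhibitor of the acute phase, stood at 0.328 to 1.26 CPM in sham, at 128 to 136 CPM in SNI and at 57.8 to 60 CPM in SNI + G15. Serpina3n was 6.21 above sham but -1.15 against SNI (adjusted p = 1.8e-06), with counts not whole in 5 libraries.

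Ptgds, the lipocalin-type prostaglandin D2 synthase of the meninges and glia, fell from 733, 820 and 763 CPM in sham to 158, 162 and 154 CPM, which is 4.94-fold lower (-2.30, SE 0.06, adjusted p = 2.91e-09). Cilp, a cartilage matrix protein, changed by -2.94, Mmp13, a collagenase, by -2.79, Asb15 by -2.59 and Mfap4, a fibroblast matrix protein, by -2.07. Igf2, the growth factor, changed by -1.76 (SE 0.06), Inhbb, an inhibin subunit, changed by -1.66 and Bmp4, a bone morphogenetic protein, by -1.83. All of these lay below the sham libraries without overlap. Ndufa10l1 changed by -2.0, but its counts were not whole in 8 libraries and it stood between 0 and 0.426 CPM in SNI and between 6.35 and 9.71 CPM in SNI + G15. Reads of such a near-copy of Ndufa10 can be split either way, so it is uncertain, as is Spatc1l (-2.0, SE 0.45).

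Receptors and ion channels of sensory neurons were lower in many tested members. Of 51 potassium channel genes, 48 were tested, 38 were lower and 3 higher, against 21.9% of all tested genes lower, and the median was -0.67. Without SNI + G15 replicate 3, 37 were lower and 3 higher, and the median was -0.60. Kcns1, a silent subunit of the voltage-gated channels, showed 111, 117 and 118 CPM in the sham libraries and 34.8, 38.4 and 43.2 CPM in SNI + G15, which is 3-fold lower (-1.58, SE 0.08, adjusted p = 3.04e-07). Its SNI libraries lay between, at 58.7 to 60.6 CPM, and Kcns1 was -0.62 against SNI (adjusted p = 0.00108). The fast delayed rectifier Kcnc1 (-1.30), the silent subunit Kcns3 (-1.17) and the axonal channel gene Kcna2 (-0.92) were lower too. Dpp6, an auxiliary subunit of A-type channels, fell from 525 to 549 CPM to 329 to 334 CPM (-0.70, SE 0.04). Among the 3 genes that rose were Kcnmb4, a regulatory subunit of the large-conductance calcium-activated channel (1.14), and the tandem-pore channel gene Kcnk13 (0.94). Potassium channel genes were also called between the injured groups, with 19 lower and 3 higher in SNI + G15 than in SNI against a background of 15.2% called, and for 24 of the 48 every SNI + G15 library was below all sham and SNI libraries. Over all tested genes that position was held by 10.8%.

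Sodium channels followed the same direction in 9 of the 13 tested, with 2 higher and a median of -0.33. Scn1a fell by 1.02 (SE 0.07) and Scn11a, a channel of nociceptors, by 0.64 from 432 to 457 CPM to 275 to 301 CPM. Scn10a, another nociceptor channel gene, was 418 to 498 CPM against 675 to 753 CPM in sham (-0.63), and Scn9a changed by -0.29. The pair that rose was the subunit gene Scn3b (0.51, SE 0.05) and the embryonic channel gene Scn3a (0.30), which was not called by limma (adjusted p = 0.0611). Only 3 of the 13 genes had whole counts in every library, so reads may have been shared out between these similar genes. Among 18 calcium and HCN channel genes 9 were lower and 2 higher, and 7 did not pass the test. Cacna2d1, the subunit that gabapentin binds, stood at 155, 143 and 143 CPM in sham and at 533, 500 and 552 CPM in SNI + G15, 3.56-fold higher (1.83, SE 0.06, adjusted p = 1.61e-08). The pacemaker channel gene Hcn2 (-0.70) and the T-type channel gene Cacna1h (-0.69) were lower. Without SNI + G15 replicate 3 only 6 genes of this list were lower and without sham replicate 3 only 7 were called in all.

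**Figure D2:**
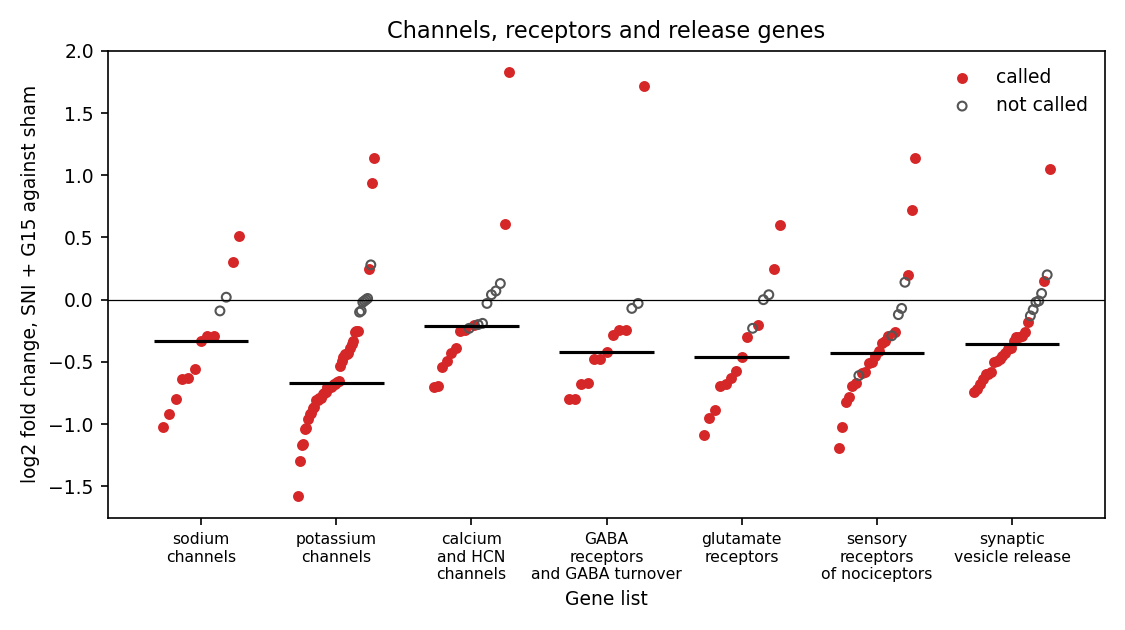
Log2 fold change of each tested gene between SNI + G15 and sham (y axis) for 7 gene lists (x axis), ordered within a list. Filled points are called genes, open points are not called, and bars are list medians, which lie between -0.67 for potassium channels and -0.21 for calcium and HCN channels. Most filled points lie below 0, with Cacna2d1 at 1.83 and Gabra5 at 1.72 the highest.

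Of 21 genes of GABA receptors and GABA turnover, 13 passed the filter, 10 were lower and 1 was higher, with a median of -0.42. GABA-A receptors are chloride channels that damp sensory neuron firing. The metabotropic receptor gene Gabbr2 changed by -0.67. Gabra2, the subunit that the study centres on, read 165, 154 and 155 CPM in sham, 151, 150 and 157 CPM in SNI and 141, 132 and 119 CPM in SNI + G15. Gabra2 was -0.28 against sham (SE 0.07, adjusted p = 0.00702) and -0.23 against SNI (adjusted p = 0.0423), with counts not whole in 8 libraries. The call against SNI is unstable. It was lost when any single SNI library was left out, without SNI + G15 replicate 2, and with a replicate block in the fit. Gabra5, an extrasynaptic subunit, moved the other way at 8.43, 8.48 and 8.16 CPM against 29.2, 27 and 27.1 CPM (1.72, SE 0.07). Abat, the transaminase that breaks down GABA and β-alanine, fell by 0.68.

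None of the 3 estrogen receptor genes reached an FPKM of 1, so their values come from a fit of all genes with a count. Gper1, the target of G15, read 1.31, 2.23 and 2.08 CPM in sham, 2.13, 1.75 and 1.44 CPM in SNI and 2.03, 1.56 and 2.09 CPM in SNI + G15. These ranges overlap, and the change between SNI + G15 and sham was under 0.01 in size with an SE of 0.24 (adjusted p = 0.991). Changes of the size of that SE could not have been detected at this depth. Esr1, the nuclear receptor ERα, read 3.01 to 4.38 CPM in sham and 2.84 to 3.25 CPM in SNI + G15 (-0.27, SE 0.17, adjusted p = 0.27). Against SNI it was -0.59 (adjusted p = 0.0221), a call that was not refitted with a library left out. Esr2 was at 2 to 11 counts a library in these groups.

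Glutamate receptors and vesicle release genes were lower in most tested members. Of 15 glutamate receptor genes tested, 10 were lower and 2 higher (median -0.46), among them Gria2 (-0.95), Grik1 of C-fibre terminals (-0.89) and Grin1, the obligatory NMDA receptor subunit (-0.69). Of 28 vesicle release genes tested, 20 were lower and 2 higher (median -0.36). Snap25, a fusion protein of the release machinery, changed by -0.60 and Vamp1 by -0.74, while Syt4, a calcium sensor of dense-core vesicles, rose by 1.05 from 265 to 299 CPM to 567 to 595 CPM. Of 24 tested receptors that mark nociceptors, 16 were lower and 3 higher (median -0.43). Mrgprd, the receptor for β-alanine, fell from 84.2, 80 and 84.2 CPM in sham to 42.8, 43.2 and 37.5 CPM in SNI + G15 (-1.02, SE 0.07, adjusted p = 1.93e-06). SNI lay between, at 53.3 to 56.3 CPM, and Mrgprd was -0.42 against SNI (adjusted p = 0.00362), with counts not whole in any library. Htr1d (-1.19) and the capsaicin receptor gene Trpv1 (-0.58) were lower. Npy2r, a receptor for neuropeptide Y, was 1.14 higher. Among the neuronal structure genes Nefl (-0.81), Nefh (-0.71) and Nefm (-0.64), the neurofilament triplet, were lower and peripherin, Prph, was 0.36 higher. Of 17 transcription factors that set sensory neuron identity, 9 were lower, such as Etv1 (-0.87) and Prdm12 (-0.62), and 1, Zeb2 (0.47), was higher. Bdnf (1.5, SE 0.08) and the GDNF receptor gene Gfra1 (1.18, SE 0.06) were higher in the neurotrophin list, in which 4 of 14 were higher and 6 lower.

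Transcript length moved with the changes, most of all in SNI + G15 replicate 3, and its part in the lists of channels was not tested beyond the medians given here. The median change against sham by 5 equal classes of effective length, from the shortest to the longest, was 0.116, 0.022, -0.011, -0.043 and -0.078. By library, the shortest and the longest class lay 0.215 and -0.126 from the sham mean in SNI + G15 replicate 3, 0.061 and -0.019 in replicate 1 and 0.088 and -0.049 in replicate 2. Sham replicate 2, at 0.064 and -0.052, was tilted about as much as those last 2 libraries. Set against the median of their own length class, potassium channels were at -0.62, sodium channels at -0.31, GABA genes at -0.34 and glutamate receptors at -0.38. Differences in length within a class were not tested.

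Schwann cell myelin genes were lower than in sham but not as low as in SNI. Of 20 tested, 11 were lower and 4 higher, with a median of -0.54. Pmp2, a fatty acid binding protein of myelin, read 160, 172 and 145 CPM in sham, 44.5, 38.8 and 39 CPM in SNI and 60.4, 58.3 and 60.7 CPM in SNI + G15. The 3 groups did not overlap, and Pmp2 changed by -1.42 against sham (SE 0.07, adjusted p = 2.72e-07) and 0.55 against SNI (adjusted p = 0.000836). Mbp, myelin basic protein, changed by -0.77 and 0.24. In all, 13 of the 20 were called higher in SNI + G15 than in SNI and none lower, against 15.2% of all tested genes called. Gldn, a protein of the nodes of Ranvier, was at 51.4 to 54 CPM in SNI + G15, above both sham (30.3 to 33.2 CPM) and SNI (33.8 to 35.1 CPM).

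Of 15 satellite glial genes tested, 7 were higher than in sham and 3 lower. Gfap stood at 13.7, 17.5 and 13.1 CPM in sham, at 87, 83 and 81.7 CPM in SNI and at 110, 117 and 121 CPM in SNI + G15. It was 7.79-fold higher than sham (2.96, SE 0.10, adjusted p = 2.13e-08) and 0.47 higher than SNI (adjusted p = 0.000658). Glul, glutamine synthetase, was 407 to 417 CPM in SNI + G15 and 299 to 317 CPM in the other 2 groups (0.43 against sham, SE 0.04). The potassium channel gene Kcnj10 (-0.34) and the glutamate transporter gene Slc1a3 (-0.26) were lower, but Kcnj10 lost its call without sham replicate 1 (adjusted p = 0.0632) and Slc1a3 under 8 alternatives (adjusted p up to 0.127). Sterol synthesis genes split, with 5 of 23 higher and 8 lower than in sham and 10 lower than in SNI, but limma gave 7 higher and 4 lower than sham and scaling by library size alone 6 and 4. Lss (0.42) was among those higher and Fdft1 (-0.32) among those lower. The median of -0.07 turned to 0.01 without SNI + G15 replicate 3, and the number called fell to 7 without SNI + G15 replicate 1 or sham replicate 1 and to 8 without SNI + G15 replicate 2.

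Genes of innate immune cells rose together. All 22 macrophage genes were tested and higher (median 1.28), as were 9 of 10 tested neutrophil genes (median 0.85) and 21 of 23 tested complement genes (median 0.98), against 21.4% of all tested genes. The macrophage genes summed to between 814 and 898 CPM in the sham libraries and to between 1900 and 1990 CPM in SNI + G15. C1qa, a chain of the first complement component, rose by 1.36 (SE 0.07), Lyz2, lysozyme, by 1.27, Itgam, the CD11b integrin, by 1.79 and Gpnmb, a lysosomal glycoprotein of phagocytes, by 1.33. Gpnmb was at 54.2 to 59 CPM, against 32.1 to 35.4 CPM in SNI and 21.3 to 22.4 CPM in sham. C3, the central complement protein, read 7.44, 8.1 and 7.5 CPM in sham, 48.5, 44.9 and 47.5 CPM in SNI and 31.6, 35.4 and 32.5 CPM in SNI + G15, so it was 2.09 above sham and -0.50 against SNI (adjusted p = 0.00112). Csf3r, the receptor for the granulocyte growth factor, rose by 2.03 and S100a9, a neutrophil calprotectin subunit, by 0.71.

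MHC class II genes, which antigen-presenting cells use to show peptides to T cells, were higher in 8 of 8 tested (median 1.52) but lower than in SNI in 5 of 8. RT1-Bb stood at 7.5, 6.36 and 7.94 CPM in sham, at 60.6, 59.2 and 62 CPM in SNI and at 31.8, 34.4 and 35.2 CPM in SNI + G15 (2.20 against sham, -0.84 against SNI with adjusted p = 3.98e-05). Cd74, the invariant chain, was 331 to 366 CPM in SNI + G15, 413 to 425 CPM in SNI and 116 to 130 CPM in sham. Of 9 tested T and NK cell genes, 3 were higher, 0 lower and 6 not called. Counts were whole in every library for 6 of the 9, and 0 of these 6 were called. Every call of this list against sham thus rests on counts that were not whole in at least 1 library. Cd8a was higher than sham (1.69, SE 0.22) at 2.96 to 3.86 CPM, and Gzmb, a granzyme of killer cells, gave 83, 58 and 67 counts against 0, 7 and 0. Cd3e, the defining chain of the T cell receptor complex, gave 6, 10 and 11 counts against 12, 11 and 11 in sham and was not called against sham, but it was -1.69 against SNI (adjusted p = 0.01). Cd4, which rat macrophages also carry, was 1.18 higher.

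Some mast cell genes were tested at low levels. Of 12 listed genes only 5 passed the filter, and Cma1, Cpa3 and Tpsb2 reached an FPKM of 1 only in SNI + G15 libraries. That filter favours a higher level in SNI + G15. The changes of these genes, and any count or median over the list, are therefore not read as results. Cma1, the mast cell chymase, read 0.547, 0.435 and 0.274 CPM in sham, 0.213, 0.159 and 0.16 CPM in SNI and 1.65, 1.08 and 1.93 CPM in SNI + G15 (1.86 against sham, SE 0.37, and 3.09 against SNI). Cpa3, the mast cell carboxypeptidase, was 1.66 above sham at 1.4 to 1.55 CPM and Tpsb2, a tryptase, 1.51 above sham at 1.02 to 1.29 CPM. Hdc, which makes histamine, was higher in both injured groups (1.61 in SNI + G15). On the log2(FPKM + 1) scale the median of the 5 genes was 0.61, against 1.61 from counts. Kit, the other one, which other cells of the ganglion also express, was at 52.9 to 61.3 CPM in every sham and SNI + G15 library (-0.10, adjusted p = 0.262). With Kit included the list summed to 54.9 to 63.4 CPM in sham and 59 to 61 CPM in SNI + G15. The receptor chain gene Fcer1a was at 0 to 4 counts throughout.

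**Figure D3:**
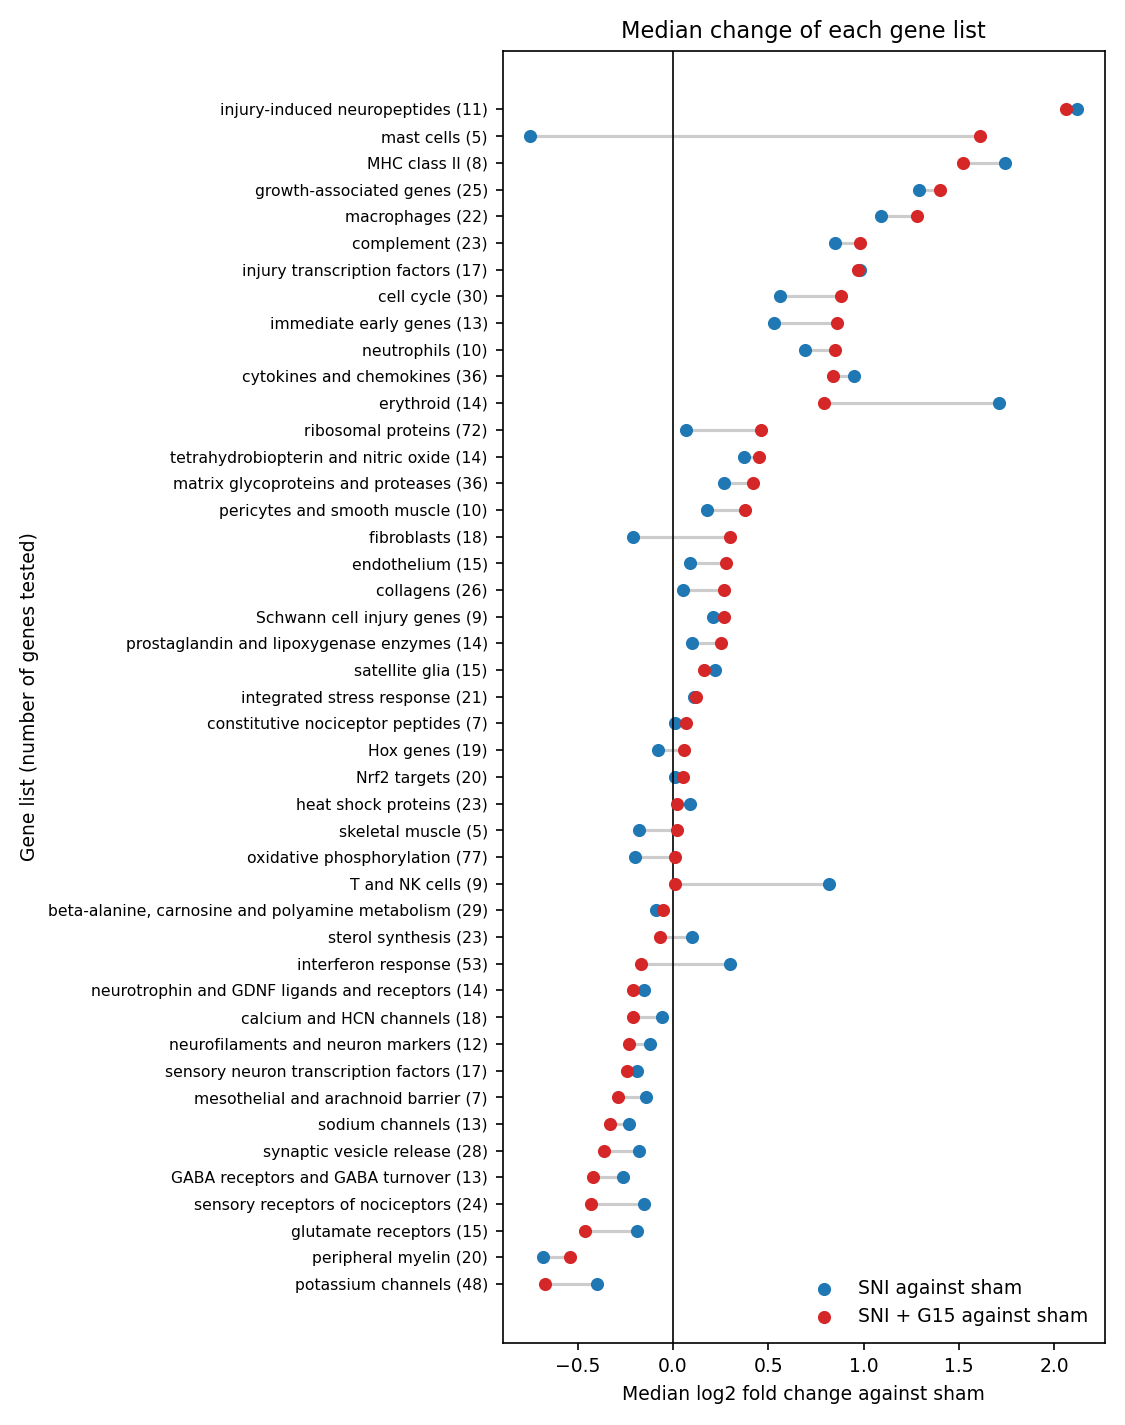
Median log2 fold change against the same 3 sham libraries (x axis) for 45 gene lists (y axis, number of tested genes in brackets), in red for SNI + G15 and in blue for SNI. Injury peptides, macrophage and growth genes lie to the right in both groups. The colours lie apart for interferon (-0.17 and 0.30), T and NK cell (0.01 and 0.82), erythroid (0.79 and 1.71) and fibroblast genes (0.30 and -0.21). The T and NK cell medians rest on 9 genes, and that of SNI + G15 was 0.48 over the 7 genes kept by the filter of edgeR. Summed, the 9 genes gave 98.4 to 102 CPM in SNI + G15 and 91.6 to 95.7 CPM in SNI. The mast cell medians (1.61 and -0.75) rest on only 5 genes. They are not compared, as Cma1, Cpa3 and Tpsb2 passed the filter only through SNI + G15 libraries.

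Of 47 cytokine and chemokine genes listed, 36 were tested, 24 were higher and 4 lower (median 0.84), against 21.4% and 21.9% of all tested genes. Members close to absent from sham, such as Il6, passed the filter only through the injured groups. That favours increases in this count and median. Il6 gave 1, 0 and 0 counts in sham and 33, 27 and 30 in SNI + G15, a ratio of 90 with an interval from 15.7 to 3590, and it was -0.83 against SNI (adjusted p = 0.0221). Il1b, the inflammasome product, was 0.711, 1.47 and 1.04 CPM in sham and 2.83, 2.96 and 2.52 CPM in SNI + G15 (1.35, SE 0.27, adjusted p = 0.00248), with 2.34 to 2.93 CPM in SNI. Lif and Clcf1, cytokines of the IL-6 family, rose by 3.05 and 3.01, and both were higher than in SNI (2.07 and 1.78). Cxcl14 read 0.602, 1.63 and 1.09 CPM in sham, 14.1, 12.9 and 14.4 CPM in SNI and 53.9, 55.6 and 54 CPM in SNI + G15, 48.3-fold above sham (5.59, SE 0.16) and 1.98 above SNI (adjusted p = 4.29e-07). Cxcl13, which draws B cells, was 1.61 above sham but -0.81 against SNI. Ccl2 rose by 1.70. The 4 genes that fell were Ccl24 (-1.21), Ccl5 (-0.71), Ccl21 (-0.40) and Cxcl10 (-0.38), of which Ccl5 and Ccl21 lost their calls under some alternatives (adjusted p up to 0.0886 and 0.0719). Nos2, the inducible nitric oxide synthase, stayed below the filter and gave no call (adjusted p = 0.286). Alox15, a lipoxygenase of alternatively activated macrophages and eosinophils, read 0.383, 0.381 and 0.985 CPM in sham, 21.2, 20.2 and 22.3 CPM in SNI and 1.92, 2.26 and 1.72 CPM in SNI + G15. It was 1.73 above sham (adjusted p = 0.00399) and -3.43 against SNI (adjusted p = 4.29e-07).

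Many interferon-stimulated genes were below the sham level. Type I interferons act through STAT proteins and IRF9, which bind interferon-stimulated response elements and turn on antiviral genes. Of 55 listed genes, 53 were tested, and 24 were lower and 9 higher against sham (median -0.17). Without SNI + G15 replicate 3, 26 were lower and 7 higher, with a median of -0.18. Between SNI and sham 31 were higher and 6 lower (median 0.30), and between SNI + G15 and SNI 37 were lower and 2 higher (median -0.52, against 15.2% of all genes called). For 23 of the 53 every SNI + G15 library lay below all 6 sham and SNI libraries, a position that 10.8% of all tested genes held.

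Ifit1, which binds viral RNA, had 19.4, 20 and 20.6 CPM in sham, 10.7, 9.9 and 11.1 CPM in SNI and 2.35, 1.83 and 2.2 CPM in SNI + G15. The 3 groups were far apart, and Ifit1 was 9.47-fold lower than in sham (-3.24, SE 0.10, adjusted p = 1.76e-08), although its counts were not whole in any library. Rsad2, the antiviral enzyme viperin, had whole counts and read 41.3, 41.9 and 41.1 CPM in sham, 37.6, 38.6 and 40.1 CPM in SNI and 11.3, 10.4 and 10.3 CPM in SNI + G15. That is 3.92-fold below sham (-1.97, SE 0.07, adjusted p = 2.36e-08) and -1.86 against SNI. Irf7, the master factor of the interferon response, read 78.1, 86.5 and 80.2 CPM in sham and 30.2, 35.6 and 30.7 CPM in SNI + G15 (-1.36, SE 0.08), while SNI lay on the sham range at 76.9 to 84 CPM. Usp18, which removes the ubiquitin-like ISG15, changed by -1.54, and Isg15 itself by -1.41 at 7.89, 7.81 and 11.5 CPM against 22.5 to 25.1 CPM. The RNA sensor gene Ddx58, which encodes RIG-I, changed by -0.62 and Mx1 by -0.72. The signal transducers moved less, Stat2 by -0.31 and Irf9 by -0.30. The 9 genes that rose were Ifitm1 (1.5), Gbp2 (0.99), Epsti1 (0.95), Ifitm3 (0.89), Ifit1bl (0.86), Tap2 (0.32), Psmb10 (0.30), Herc6 (0.30) and Parp9 (0.24). The last 4 lost their calls when single libraries were left out (adjusted p up to 0.114). Of these, Ifitm1 and Ifitm3 were also higher than in SNI.

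**Figure D4:**
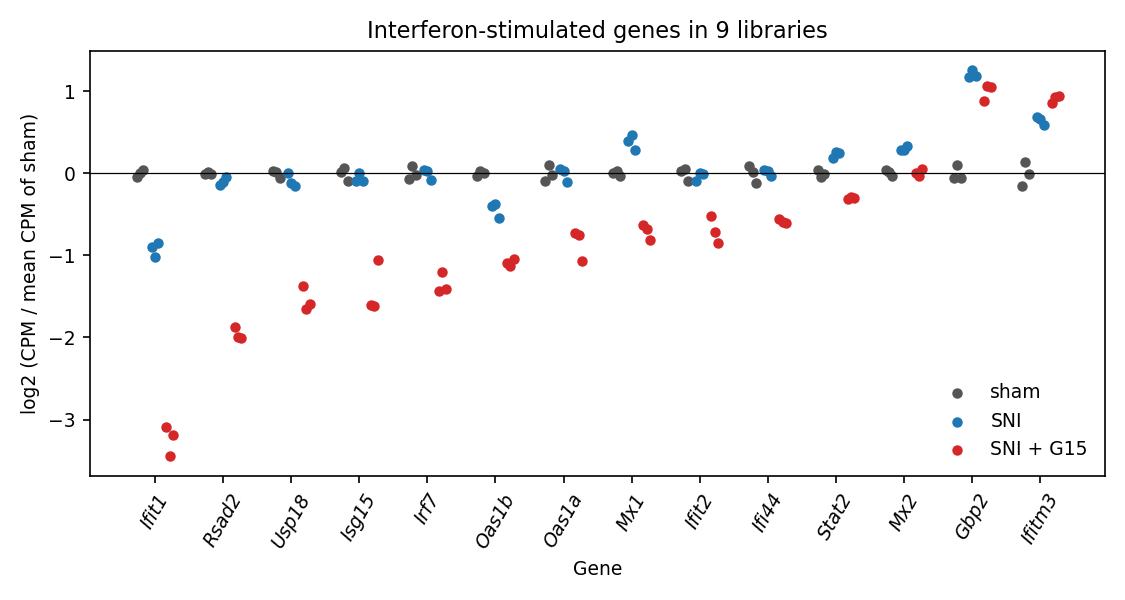
Level of 14 interferon-stimulated genes in each of the 9 libraries as log2 of CPM over the mean CPM of sham (y axis), 1 point a library, coloured by group. Ifit1 to Stat2 lie below both other groups in SNI + G15, Mx2 lies at the sham level, and Gbp2 and Ifitm3 lie above it.

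The promoters of 4 of the genes that fell are shown with the core of the interferon-stimulated response element, which is TTTC, any 2 bases and TTTC again, searched on both strands of the same 300 base windows. It is in 3.92% of all promoters and in 3.11% of the tested genes. Of the interferon genes called lower, 16 have a promoter in the table and 11 of them hold it (68.8%). Of the other tested interferon genes, 25 have one and 18 hold it (72%), a share close to that of the genes that fell. It is in none of the 13 injury transcription factors, 17 growth-associated genes and 8 injury neuropeptides with a promoter. Each line gives a stretch of 150 bases before the start on the minus strand of GRCr8, for Rsad2 (chr6:48788188-48788337), Irf7 (chr1:205800024-205800173), Oas1b (chr12:41395853-41396002) and Ifi44 (chr2:243303841-243303990). Capitals mark the motif, and in Oas1b a pair of overlapping matches on the opposite strand makes 1 run. The match begins 147 bases before the start in Rsad2, 69 in Irf7, 59 in Oas1b and 26 in Ifi44.
Rsad2: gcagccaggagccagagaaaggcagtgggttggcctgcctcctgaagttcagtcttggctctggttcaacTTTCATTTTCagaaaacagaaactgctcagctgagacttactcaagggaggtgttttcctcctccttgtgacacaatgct
Irf7: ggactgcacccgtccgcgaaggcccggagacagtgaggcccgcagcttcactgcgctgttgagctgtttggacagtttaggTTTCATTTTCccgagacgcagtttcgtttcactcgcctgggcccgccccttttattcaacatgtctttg
Oas1b: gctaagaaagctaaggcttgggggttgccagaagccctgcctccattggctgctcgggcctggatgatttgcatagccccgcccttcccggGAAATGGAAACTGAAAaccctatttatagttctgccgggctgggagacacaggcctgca
Ifi44: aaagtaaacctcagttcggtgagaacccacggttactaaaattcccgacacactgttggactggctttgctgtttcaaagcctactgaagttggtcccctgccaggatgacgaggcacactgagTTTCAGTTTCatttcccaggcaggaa
Oas1b, a sensor of double-stranded RNA, read 28.3, 29.5 and 29 CPM in sham, 22, 22.3 and 19.9 CPM in SNI and 13.5, 13.2 and 14 CPM in SNI + G15 (-1.11, SE 0.06). Ifi44 read 40.9 to 47.4 CPM in sham, 43.5 to 45.7 CPM in SNI and 29.3 to 30.3 CPM in SNI + G15 (-0.60, SE 0.07).

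Many connective tissue and vessel genes were higher than in sham. Of 18 fibroblast genes 11 were higher and 5 lower than in sham (median 0.30), and 13 were higher and none lower than in SNI. Fbln1, a matrix fibulin, read 29.4, 32 and 30.5 CPM in sham, 27.2, 24.6 and 22.9 CPM in SNI and 53.6, 52 and 49 CPM in SNI + G15 (0.74 and 1.05). Lum, lumican, was 100 to 112 CPM against 61 to 71.2 CPM in sham, and Fap, an activation marker, 1.38 higher. Of 26 collagen genes tested 14 were higher and 3 lower (median 0.27), led by Col16a1 (1.60, SE 0.05), and for 15 every SNI + G15 library lay above all others, against 10.9% of tested genes. Of 36 matrix genes 24 were higher and 3 lower (median 0.42). Thbs2, a thrombospondin, read 13.1, 12.9 and 13.5 CPM in sham, 21.4, 23.8 and 22.7 CPM in SNI and 53.1, 52.1 and 52.4 CPM in SNI + G15 (1.98, SE 0.06, and 1.22 against SNI). Timp1, an inhibitor of metalloproteinases, rose by 2.28 and Fn1, fibronectin, by 1.08. Msln, mesothelin of serosal linings, gave 0.653 to 0.711 CPM in sham, 0.159 to 0.266 CPM in SNI and 3.15 to 4.68 CPM in SNI + G15 (2.47 against sham and 4.12 against SNI), but only 1 of 7 tested genes of that list was higher than in sham and 3 were lower. Of 15 endothelial genes 8 were higher and 1 lower, such as Tie1 (0.68) and Vwf (0.47).

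Erythroid genes, which report blood in the tissue, were higher in 11 of 14 tested and lower in none (median 0.79), and 10 of the 14 were lower than in SNI. Hbb stood at 52.3 to 54.7 CPM in sham, 167 to 172 CPM in SNI and 104 to 126 CPM in SNI + G15. The 14 genes summed to between 575 and 659 CPM in sham, 1370 to 1430 CPM in SNI and 936 to 1050 CPM in SNI + G15, so blood content moved with the groups, and its part in the immune lists was not tested. Globin counts were not whole, as the copies share sequence.

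Of 30 cell cycle genes tested, 22 were higher and 0 lower (median 0.88), against 21.4% of all tested genes higher. The list covers genes of dividing cells but also the cycle inhibitors Cdkn1a and Cdkn2a. Its count therefore does not stand for dividing cells alone. Top2a, a topoisomerase of dividing cells, went from 1.47 to 1.81 CPM in sham to 6.62 to 7.79 CPM (2.10, SE 0.15), Prc1 rose by 1.83 and Aurkb, a mitotic kinase, by 1.72. Cdkn1a, the p21 inhibitor that stops the cycle and is also induced in injured neurons, rose by 2.41 to 55.8 to 60.8 CPM. Immediate early genes were higher in 9 of 13 tested and lower in 1 (median 0.86), with Fos at 16.7, 19.5 and 19.6 CPM against 3.56, 2.88 and 3.07 CPM in sham (2.54, SE 0.11) and 11.7 to 14.1 CPM in SNI. Hmox1, the heme oxygenase, stood at 66.9 to 73.8 CPM against 16.3 to 21.7 CPM in sham and 33.8 to 34.5 CPM in SNI (1.81 and 1.04). Of the 20 tested targets of the oxidative stress factor NRF2, which includes Hmox1, 8 were higher and 4 lower. Gch1, the entry enzyme of tetrahydrobiopterin synthesis, rose by 2.76 (SE 0.34).

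Genes around β-alanine, the metabolite the study follows, gave no common direction (median -0.05). Of 29 tested, 6 were higher and 9 lower, against 21.4% and 21.9% of all tested genes. The members below are given as single genes and not as a result about the list. Slc6a6, the taurine and β-alanine transporter, read 17.9, 15.3 and 16.3 CPM in sham, 19.7, 19.4 and 20.8 CPM in SNI and 25.6, 25.7 and 23.3 CPM in SNI + G15 (0.57, SE 0.08, adjusted p = 0.000245, and 0.32 against SNI). Cndp1, a carnosinase, was 0.68 higher. Abat (-0.68) and the amino acid transporter gene Slc36a1 (-0.67) were lower, while Carns1, the synthase that joins β-alanine to histidine, was not called (-0.13). The stress lists were split, with 8 higher and 5 lower among 21 tested genes of the integrated stress response and 9 higher and 4 lower among 23 heat shock genes. Hspb1, the small heat shock protein of injured neurons, was 1.40 higher.

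Ribosomal protein genes were higher in 71 of 72 tested, against 21.4% of all tested genes, with a median of 0.46. Against SNI 65 were higher (median 0.44), where 15.2% of all tested genes were called. For 67 every SNI + G15 library was above all sham and SNI libraries, a position that 10.9% of all tested genes held. Their counts summed to 12400 to 14300 CPM in sham, 13300 to 14200 CPM in SNI and 17300 to 20400 CPM in SNI + G15, the highest being replicate 3. Rps2 read 364, 414 and 404 CPM in sham, 473, 483 and 478 CPM in SNI and 594, 649 and 742 CPM in SNI + G15 (0.73, SE 0.08). Rpl15 was 0.53 and Rpl34 0.56 higher. Without SNI + G15 replicate 3, 70 of the 72 were higher and the median was 0.41. These are short genes, and set against the median of their own length class they stood at 0.34 in the comparison with sham and at 0.29 in that with SNI. Of the 22 with whole counts in every library, 22 were higher. Rpl30, at 0.711, 2.66 and 0 CPM in sham and 76.2 to 94 CPM in SNI + G15, had counts that were not whole and is uncertain. Of 77 tested oxidative phosphorylation genes, which are also short, 6 were higher and 13 lower than in sham, against 43.2% of all tested genes called. Their median was 0.01, and -0.11 against that of their length class. Without SNI + G15 replicate 3, 20 were lower than in sham and the median was -0.07. Between SNI and sham 47 were lower. Sdha (-0.37) and Ndufs1 (-0.35) were among those lower.

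**Figure D5:**
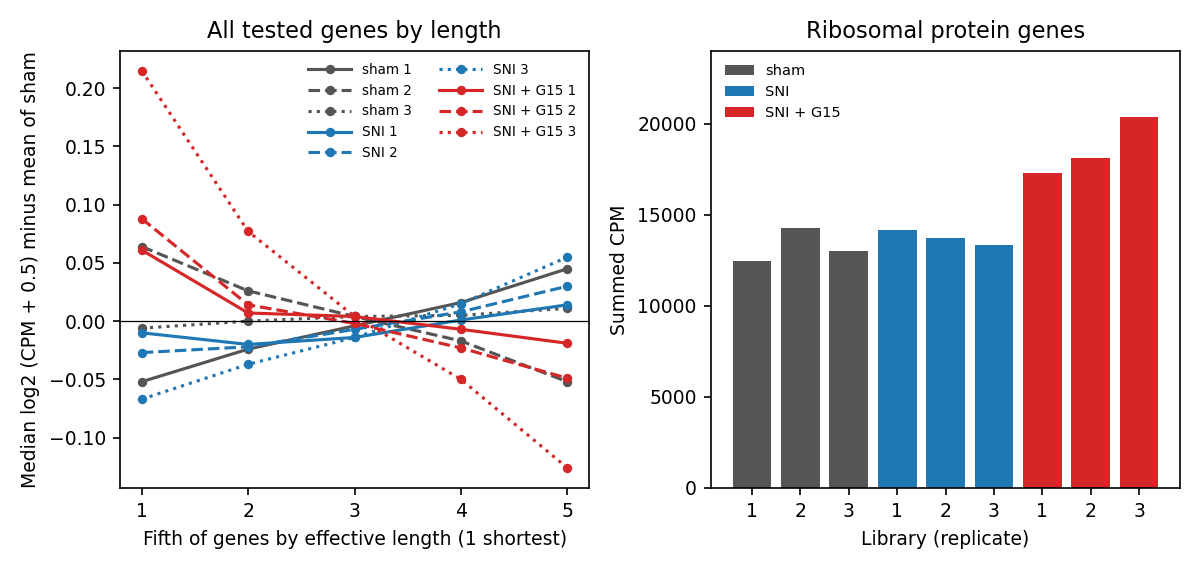
Left, median log2 level relative to the sham mean (y axis) of genes in 5 classes of effective length (x axis, shortest first) in each of 9 libraries, where SNI + G15 replicate 3 runs from 0.215 to -0.126. Right, summed CPM of the 72 tested ribosomal protein genes in each library, from 12400 to 14300 in sham and from 17300 to 20400 in SNI + G15.

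The SNI + G15 libraries lay above all sham and SNI libraries for 1560 tested genes (10.9%) and below all of them for 1550 (10.8%). Of these, 736 were called higher and 631 lower in both SNI + G15 comparisons. Beside Cxcl14, Thbs2 and Hmox1, the increases with the smallest adjusted p against SNI included Lbp, A2m and Fam111a. Lbp, which binds bacterial lipopolysaccharide, read 5.03, 5.87 and 4.98 CPM in sham, 12, 11.3 and 11.8 CPM in SNI and 60.6, 66.8 and 56.1 CPM in SNI + G15, which is 11.4-fold above sham (3.51, SE 0.10). A2m, the protease trap alpha-2-macroglobulin, read 23.5 to 24.5 CPM, 164 to 171 CPM and 303 to 344 CPM in the same order (3.75, SE 0.07). Fam111a, a protease that limits some viruses, rose by 3.25 to 10.5 to 11.7 CPM, while SNI stayed at 1.65 to 1.92 CPM. Serpinb1b was 1.0 higher than sham but had counts that were not whole. Beside Ifit1, Rsad2 and Irf7, the genes below both groups included Nqo2, a quinone reductase, at 17.7, 19.1 and 17.9 CPM in sham, 21.7, 24.5 and 20.4 CPM in SNI and 5.71, 5.87 and 5.15 CPM in SNI + G15 (-1.72, SE 0.09). Casr, the calcium-sensing receptor gene, was 27.2 to 31.7 CPM against 49.3 to 56.2 CPM in sham and 61.7 to 65 CPM in SNI (-0.89, SE 0.08). Rasd2, a small GTPase, was -0.89 against sham and -2.13 against SNI, and Slfn4, an interferon-inducible schlafen, was -0.28 and -0.95.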

How the data were processed

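RNA-Seq was done on 9 libraries of rat DRG tissue, 3 each labelled sham, SNI and SNI + G15, and 6 of them form the comparison reported. The authors deposited a gene table with FPKM values and estimated counts, in which a gene's counts are summed over its transcripts and reads that fit several transcripts are divided. Columns headed Control were taken as the sham libraries by elimination. The submitters' processing notes name the mouse builds GRCm38 and mm10, although gene IDs and symbols are those of rat, so no coordinates of the files' build are given. The labels' extraction text speaks of macrophages, while the tissue label is DRG. The aligner's settings are not given in the sources used here. A further 9 per-sample columns of TPM and the authors' own comparisons were not used.

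Genes that reached 1 FPKM in at least 1 of the 9 libraries were tested (14305 of 20194). Estimated counts were rounded, scaled by TMM and fitted with the quasi-likelihood test of edgeR 4.0.16 in R 4.3.3 on the 6 libraries compared, without a block, and p-values were adjusted by Benjamini-Hochberg over all tested genes. Genes under the filter were read from a fit of all genes with a count. Alternatives were DESeq2 1.42.0, limma 3.58.1 on log2 FPKM with pseudocounts of 1 and 0.1, other scalings, filters and samples, and leaving out each library. The scripts were tested on simulated data. Samples with the same replicate number did not deviate together, with correlations from -0.125 to 0.0923. With so few libraries a group, these correlations cannot exclude that libraries were paired. A count was called whole within 0.005, and 7665 genes were not whole in at least 1 library. Intervals of count ratios are exact at 95% and cover counting error only. Promoters are RefSeq's, on GRCr8, and 18599 gene IDs of the table are in RefSeq.

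The named genes are the 15 largest changes each way among called genes with non-overlapping groups and at least 1 CPM, up to 4 called members a list by adjusted p, 13 genes of interest to the study, the 8 each way with the smallest adjusted p against sham, 8 each way outside both other groups, and members used to describe a list. The comparison, the members and the lists were chosen with earlier results of these data known. Some genes that the rule takes are not reported here.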

Additional observations from a re-analysis of the deposited data

How the results depend on the processing

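The count of genes called between SNI + G15 and sham stayed within 1.5 times of 6186 under the other tools, scalings, filters and library sets, from 5101 without sham replicate 1 to 6880 with all 9 libraries in one fit. With the study's thresholds of an unadjusted p and a log2 change of at least 0.5 it was 2653. Of 257 genes taken by the naming rule and called against sham, 244 were called under every alternative and 0 changed direction. Scaling by library size alone made 57.9% of the calls increases, against 49.4%. Between SNI + G15 and SNI the count of 2179 ranged from 893 to 2333 when 1 library was left out and was 1292 with the replicate block. With the replicate block 5735 genes were called against sham. Values near 0 that were not called turned sign: Gper1 gave 0.00 with the filter of edgeR, Klf4 (0.02, from -0.01 to 0.07 without 1 library) gave -0.01 without SNI + G15 replicate 3 or sham replicate 3, and Mx2 (-0.01) gave 0.04 with limma at both pseudocounts, 0.03 by library size only, 0.00 with all libraries in one fit and -0.03 to 0.01 without 1 library. Of 45 list counts 6 moved by over 1.5 times, and 5 list medians close to 0 changed sign, those of sterol synthesis, T and NK cells, skeletal muscle, heat shock and oxidative phosphorylation genes. The cause was not tested. With 3 libraries a group and few counts for genes such as Nos2, Esr2 and the mast cell genes, small changes could not be detected at this depth.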

Other observations

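Of 19 Hox genes, which keep the segmental identity of ganglia, 5 were higher and 6 lower after injury and G15 (median 0.06). Hoxb8 stood at 21.6, 22 and 24.7 CPM in sham and at 10.1, 11.8 and 11.8 CPM in SNI + G15 (-1.03, SE 0.09), while Hoxd10 was 0.71 and Hoxd3 0.61 higher. The number called fell to between 5 and 7 under 6 alternatives. Of 14 prostaglandin and lipoxygenase genes tested, 7 were higher and 1, Ptgds, lower, but with DESeq2 or without sham replicate 1 only 4 were higher. Ptges, the inducible prostaglandin E synthase, went from 2.41, 2.77 and 1.75 CPM in sham to 8.85, 9.21 and 8.32 CPM (1.91, SE 0.16), and Ptges was also 0.74 above SNI (adjusted p = 0.00248 by edgeR). Pericyte and smooth muscle genes were higher in 5 of 10 tested and lower in 1, with Des, desmin, at 1.51 and Rgs5, a pericyte marker, at 0.94. Skeletal muscle genes summed to 25.3 to 26.4 CPM in sham and 23.1 to 25.3 CPM in SNI + G15, and 1 of 5 tested, Myh7, was lower (-0.43), with counts not whole in any library.

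Gsta1, a glutathione transferase of the NRF2 list, gave 0, 85 and 40 counts in the sham libraries, 27, 45 and 0 in SNI and 0 in each SNI + G15 library. Its counts were not whole in 4 libraries, and 1 sham library was at 0 too.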
